A study of Mus musculus with 30 samples.

Results

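Pre-mRNA splicing needs SR proteins, SR-related proteins, the SF3A and SF3B parts of the U2 snRNP, and the heterogeneous nuclear ribonucleoproteins (hnRNPs), and the mRNAs of these proteins were followed here from mouse embryonic stem cells into embryoid bodies. The genes were every gene on the array whose symbol names a numbered Srsf, Sf3a or Sf3b protein, an Hnrnp protein, Srrm1 or Srrm2. They were 40 genes with 131 probe sets. A probe set is the group of array oligonucleotides that reports 1 transcript, and 45101 were on the array. Each gene was read from the probe set with the highest mean log2 value over the 30 arrays. In this way 39 of the 40 were tested among 13250 genes: 9 SR proteins, 2 SR-related proteins, 3 SF3A subunits, 6 SF3B subunits and 19 hnRNPs. Srsf12 did not pass the filter on low signal.

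The R1 mouse embryonic stem cell line was compared in 2 states. Embryoid bodies (EB) are aggregates that differentiate once the cytokine LIF is withdrawn, and they were taken at day 5. The embryonic stem cells (ESC) were kept undifferentiated with LIF. Cells of both states received cycloheximide, which stops ribosomes on their mRNAs, at 150 ug/ml for 15 min before harvest. Cytoplasmic lysate was run on a sucrose gradient, and its fractions were combined into pools 1 to 4. There were 3 cultures of each state, and every culture was measured in its 4 pools and as total RNA, which made 10 groups of 3 arrays. The labels do not say from which end of the gradient pool 1 came, and pools are therefore named by number. Every array was made from 2.5 ug of RNA, so a comparison of pools is one of array signals and not of mRNA amounts.

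SR proteins carry RNA-binding domains and a tail rich in arginine and serine, and they mostly promote the use of the exons they bind. SF3A and SF3B sit in the U2 snRNP and help it to hold the branch site of the intron. The hnRNPs package nascent transcripts and often oppose SR proteins at the same exons, and several also bind mature mRNA in the cytoplasm. Many genes of these families control their own mRNA through alternative exons that lead to its decay.

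The first bases of an mRNA can bear on its translation, so the sequence around the annotated start is given for members whose place in the gradient is described below. RefSeq's promoter table for GRCm38.p6 held 36 of the 40 genes. Hnrnpa0, Hnrnpab, Hnrnph1, Hnrnph3 and Srsf5 are shown because their pool ratio was called higher in EB. Hnrnpll and Hnrnpul2 were called higher too but had no entry in the promoter table. Sf3a3, Sf3b2 and Srrm2 are shown because their signal lay furthest toward pools 3 and 4 in ESC. Each line has 40 bases before the start and 20 from it on, 5′ to 3′, and for a gene with several entries it is the first in the table. Capitals mark the annotated first base or, where that base is C, the whole run of pyrimidines that begins there.
Hnrnpa0 (chr13:58128537-58128596, minus strand): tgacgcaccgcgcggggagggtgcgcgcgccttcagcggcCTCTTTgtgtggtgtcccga
Hnrnpab (chr11:51606862-51606921, minus strand): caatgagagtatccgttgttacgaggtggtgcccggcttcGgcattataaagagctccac
Hnrnph1 (chr11:50376950-50377009, plus strand): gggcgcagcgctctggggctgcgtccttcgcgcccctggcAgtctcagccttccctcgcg
Hnrnph3 (chr10:63023830-63023889, minus strand): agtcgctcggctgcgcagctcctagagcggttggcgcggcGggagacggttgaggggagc
Srsf5 (chr12:80945459-80945518, plus strand): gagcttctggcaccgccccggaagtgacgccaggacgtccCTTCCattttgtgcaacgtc
Sf3a3 (chr4:124714821-124714880, plus strand): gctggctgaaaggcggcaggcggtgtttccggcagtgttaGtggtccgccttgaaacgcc
Sf3b2 (chr19:5295438-5295497, minus strand): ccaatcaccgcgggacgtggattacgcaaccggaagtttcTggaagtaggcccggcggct
Srrm2 (chr17:23803147-23803206, plus strand): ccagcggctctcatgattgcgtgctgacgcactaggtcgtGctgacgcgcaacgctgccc
The annotated start was a C followed by at least 4 pyrimidines in Hnrnpa0 and Srsf5, and in no other of the 36 genes. Of the members' 50 entries 2 began in this way, against 2.51% of the 32851 entries in all. The letters CCGGAAG, searched on both strands of the 250 bases before the start, were found in 15 of the members' 50 entries and in 6.91% of all entries. They lay in 11 of the 36 genes, among them all 3 SF3A genes, Sf3b2, Sf3b3, Sf3b6 and Srsf5. TATAAA, searched in the same way, was in 4 of the 50 entries and in 12.4% of all entries. A match describes these letters only.

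Arrays of a group correlated across genes at a mean of 0.920 to 0.987, and the third replicate of EB pool 2 had the lowest value. Mean signal of the total RNA arrays was 302.1 to 376.4 in EB, against 151.0 to 156.4 in ESC, on the deposited scale. Members were therefore described mainly relative to all genes, that is after quantile normalisation, which gives every array the same distribution. In total RNA on that scale the 8 pluripotent markers summed to 42950 to 43590 in EB, against 41580 to 42000 in ESC, so their sum was not lower in EB. A sum weighs the strongest signals most. Their median log2 difference was -0.0016, and at an unadjusted p under 0.05 limma had 1 higher (Nanog) and 2 lower. With arrays scaled to 1 mean signal that median was -0.17, against 0.12 over all genes. The 8 primitive endoderm markers summed to 473.8 to 508.3 in EB, against 100.1 to 234.2 in ESC, and Afp of them did not pass the filter. The 7 fibroblast feeder markers summed to 128.2 to 170.7 in EB, against 173.2 to 258.3 in ESC. This sum includes Col1a1, Col3a1, Postn, Dcn and Lum, which did not pass the filter. The 5 mesoderm markers past it summed to 227.9 to 277 in EB, against 136.6 to 207.3 in ESC. The 6 neural markers summed to 314.2 to 360.8 in EB, against 355.8 to 419.2 in ESC, and Neurog2 of them did not pass the filter. Of the 5 neural markers tested, Sox1 (-1.18) and Nes (-0.59) were called lower and 0 higher. At an unadjusted p under 0.05 limma had 2 of them higher and 2 lower. Their median difference was 0.029 and the highest 0.51. The part of cell makeup in the results was not tested. Fewer cells of a type and less RNA per cell cannot be told apart in such bulk samples.

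In total RNA, 6 of the 39 splicing factor mRNAs differed between EB and ESC relative to all genes. In EB 5 rose and 1 fell, against 6.57% and 5.81% of the 13250 genes tested. The risers were Hnrnpdl, Hnrnph1, Srsf5, Srsf11 and the SF3B subunit Sf3b3, and Hnrnph2 fell. The median member difference was 0.047 on the log2 scale, against 0.011 over all genes. Called means an adjusted p under 0.05 in limma, with Benjamini-Hochberg adjustment over all 13250 genes, and each p measures the spread between these cultures. Differences are EB minus ESC of log2(signal + 32), each with its SE, over 3 cultures a state.

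Among the SR proteins, Srsf5, an SR protein first described in regenerating rat liver, had 11.46, 11.48 and 11.49 in the EB cultures, against 10.77, 10.78 and 10.96 in the ESC cultures. All EB values lay above all ESC values, and the difference was 0.64 ± 0.11 (adjusted p = 0.0136). Srsf11, an SR-like protein that acts on small neural exons, had 10.73, 10.82 and 10.78 in EB, against 10.44, 10.26 and 10.30 in ESC (difference 0.44, adjusted p = 0.0396), again with no overlap. Srsf1, a much-studied splicing activator, had 12.81, 12.69 and 12.65 in EB and 12.82, 12.71 and 12.77 in ESC, values that overlapped. The 7 SR proteins not called differed by -0.20 to 0.31.

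Of the U2 snRNP subunits, Sf3b3, a scaffold protein of SF3B, was the one called. It had 10.83, 10.55 and 10.62 in EB, against 10.18, 10.08 and 10.09 in ESC, a difference of 0.55 ± 0.12 (adjusted p = 0.0294). Sf3b1, which closes around the branch site, had 10.95, 10.98 and 10.97 in EB and 11.19, 11.14 and 10.99 in ESC. Its EB values all lay below its ESC values but were not called (difference -0.14, adjusted p = 0.421). Sf3a2, an SF3A subunit, had 9.06, 9.08 and 9.30 in EB and 9.28, 9.24 and 9.37 in ESC, with overlap. The other 4 SF3B subunits differed by -0.37 to 0.071 and the 3 SF3A subunits by -0.22 to -0.10. Srrm1, a splicing coactivator, differed by 0.31 (adjusted p = 0.171), and Srrm2, a core protein of nuclear speckles, by 0.18 (adjusted p = 0.36).

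The hnRNPs held both the highest and the lowest difference among the members. Hnrnpdl, a relative of the AU-rich element binder Hnrnpd, had 12.85, 12.61 and 12.89 in the EB cultures, against 12.02, 12.08 and 12.03 in the ESC cultures, so it was 1.67-fold higher (difference 0.74 ± 0.12, adjusted p = 0.0119). The closely related Hnrnph1 and Hnrnph2, which bind runs of G, moved in opposite directions. Hnrnph1 had 11.65, 11.77 and 11.69 in EB, against 11.07, 11.25 and 11.12 in ESC (difference 0.56 ± 0.11, adjusted p = 0.0225). Hnrnph2 had 9.14, 9.28 and 8.67 in EB, against 9.95, 9.92 and 9.79 in ESC (difference -0.86 ± 0.17, adjusted p = 0.0251). Neither gene's states overlapped, and the third EB culture was the lowest for Hnrnph2. The third relative, Hnrnph3, differed by 0.31 (adjusted p = 0.127), and Hnrnpab, also called CArG-binding factor A, by 0.041. The 16 hnRNPs not called differed by -0.35 to 0.31.

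On the deposited scale the picture was one of a general rise: 38 of 39 members were called higher in EB, as were 78.9% of all genes tested, and none lower, against 0.325%. The members' median difference was 1.13 on the log2 scale, against 0.96 over all genes. Hnrnph2 was the member not called, with 9.86, 9.80 and 9.34 in EB and 9.33, 9.37 and 9.13 in ESC (difference 0.39, adjusted p = 0.0675). Scaling the arrays on their hybridisation controls instead left 6 members higher, against 15.3% of all genes, and 0 lower, against 0.762%. It moved the members' median to 0.34 and that of all genes likewise to 0.34. A sign of RNA length, the log2 signal of the 3′ over the 5′ Actb probe set, on the total RNA arrays was 2.06 to 2.50 in EB, against 2.77 to 3.31 in ESC, and its part in these differences was not tested. The calls relative to all genes rested on few cultures: leaving out any 1 of the 6 left 0 to 3 higher, and the 5 higher calls were all lost without EB replicate 1.

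**Figure D1:**
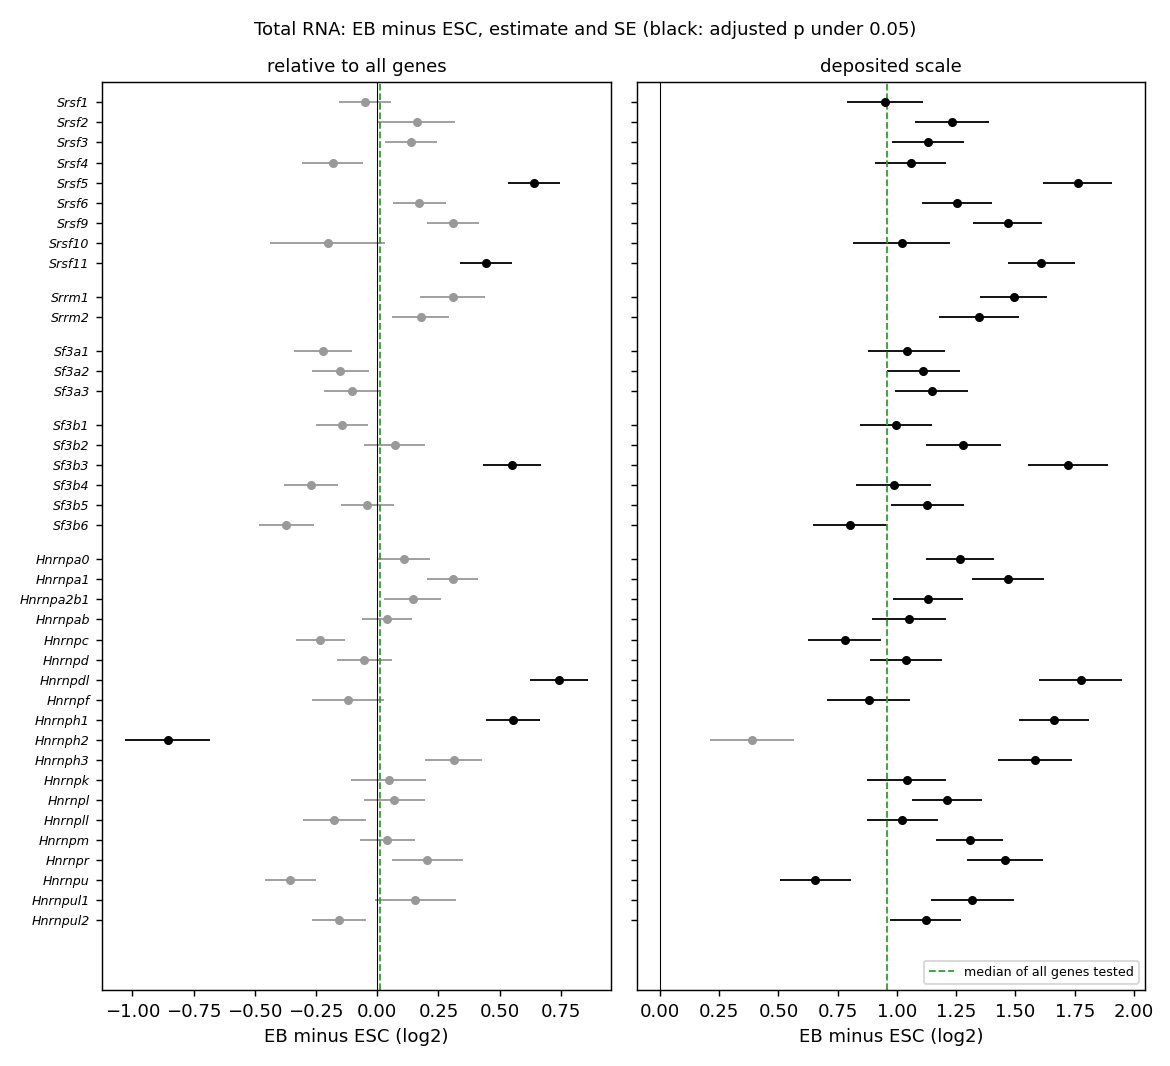
Difference between EB and ESC in total RNA for the 39 members, relative to all genes (left) and on the deposited scale (right), on a log2 axis. Points are estimates over 3 cultures a state, bars are SE, black points are called, and the dashed line is the median of all genes tested (0.011 and 0.96). Relative to all genes the members scatter around 0, with Hnrnpdl (0.74) and Hnrnph2 (-0.86) at the ends. On the deposited scale all lie above 0.

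Probe sets of 5 genes differed by more than 1 log2 unit in this comparison, and p-values in this paragraph are adjusted over 23274 probe sets. For Srsf10, a splicing repressor when dephosphorylated, the probe set used (1423982_at) gave -0.20, while 1418526_at gave 1.22 (adjusted p = 0.00992). For Srsf3, the smallest SR protein, 1416150_a_at gave 0.14 and was not called, while 1416151_at gave 0.96 (adjusted p = 0.00841) and 1416152_a_at gave 0.50 (adjusted p = 0.0441). The 7 probe sets of Hnrnpdl ran from -0.44 to 1.19, and 5 were called higher. The 2 not called were 1424252_at at -0.072 and 1428225_s_at at -0.44. The 4 probe sets of Sf3b1 ran from -0.55 to 0.65 and the 3 of Srrm2 from -0.62 to 0.41, none of them called. Among the risers, the other probe set of Hnrnph1 gave -0.21 and that of Sf3b3 -0.25, neither called. Srsf1 also had a probe set, 1428100_at, called higher at 0.77, though the one used was not. Probe sets of a gene can report different transcript ends or isoforms, and those whose names end in _x_at or _s_at may bind related transcripts.

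On the probe sets used, more splicing factor mRNAs lay toward pools 3 and 4 than toward pools 1 and 2. In ESC this lean was smaller and depended on the processing. The pool ratio of a culture averages the log2 values of its pools 3 and 4 and subtracts the average of its pools 1 and 2, relative to all genes in the pools. In EB it was above 0 and called for 26 of 39 members, against 24.8% of all genes, and below 0 and called for 2, against 15.7%. In ESC the counts were 14, against 18% of all genes, and 4, against 14.3%. The members' median ratio was 0.62 in EB, against 0.058 over all genes. In ESC it was 0.17, against 0.002 over all genes, and turned to -0.053 when arrays were centred on their medians. With the mean of a gene's probe sets it was 0.022 in ESC, against -0.006 over all genes. There 11 members were called above 0 and 4 below, against 16.1% and 13.5% of all genes. In EB that mean gave 0.45, with 23 called above 0 and 2 below, against 24% and 15.4% of all genes. Signal was highest in pool 4 for 27 of 39 members in EB and for 19 of 39 in ESC, against 33.2% and 23.8% of all genes. The log2 signal of the 3′ over the 5′ Actb probe set also differed between pools. In EB it was 1.82 to 2.98 in pool 1, against 0.46 to 1.01 in pool 4. In ESC it was 3.87 to 4.22 in pool 1, against 1.34 to 3.54 in pool 4. Its part in the pool ratios was not tested.

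Srrm2 lay furthest toward pools 3 and 4. Its ratio was 2.17, 1.65 and 1.80 in the EB cultures and 2.66, 1.92 and 1.87 in the ESC cultures, values that overlapped, with means of 1.87 ± 0.16 and 2.15 ± 0.16 (SE). Its mean signal in pools 1, 2, 3 and 4 was 7.70, 8.33, 9.62 and 10.16 in EB and 7.36, 9.26, 10.25 and 10.67 in ESC. Srrm2 encodes one of the longest proteins of the set, with extended arginine and serine-rich stretches. Its smaller partner Srrm1 had ratios of -0.05, -0.12 and -0.33 in EB and -0.12, 0.74 and 0.48 in ESC, and was called in neither state.

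The SF3A and SF3B subunits, which assemble into shared particles, did not lie together. Sf3b2, a subunit of SF3B, had ratios of 1.22, 1.12 and 1.67 in EB and 1.13, 1.31 and 1.02 in ESC, and Sf3b1 had 0.89, 0.80 and 0.57 in EB and 0.58, 0.68 and 1.10 in ESC. Sf3a3 had 0.95, 1.02 and 0.93 in EB and 1.16, 1.28 and 1.14 in ESC. These 3 were called above 0 in both states. The small subunit Sf3b6, which touches the branch-site adenosine, had -0.54, -0.38 and -0.52 in EB and -0.71, -0.42 and -0.46 in ESC and was called below 0 in both. Sf3b4, an RNA-binding subunit, had -0.25, -0.46 and -0.44 in EB (adjusted p = 0.013) and -0.21, -0.14 and -0.25 in ESC (adjusted p = 0.181). In EB the negative ratios of Sf3b4 and Sf3b6 turned to 0.19 and 0.023 when arrays were scaled to 1 mean signal. That scaling moved the median of all genes to 0.26, so both stayed below it.

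Of the 9 SR protein mRNAs, 6 had their highest signal in pool 3 in EB and 4 in ESC, where 20.1% and 23.0% of all genes did, and the states were not tested against each other in this. In EB 6 of the 9 had a ratio called above 0, and in ESC 3 did. Srsf9, a short SR protein, was called in both states, with ratios of 0.55, 0.72 and 0.58 in EB and 0.28, 0.55 and 0.79 in ESC. Srsf10 had -0.13, -0.50 and 0.013 in EB, against -0.52, -0.90 and -0.83 in ESC, where it was the member furthest toward pools 1 and 2 (mean -0.75 ± 0.13, adjusted p = 0.00112). That mean is the lowest of its 4 probe sets, which ran from -0.75 to 0.28 in ESC. Among hnRNPs, 17 of 19 had their highest signal in pool 4 in EB, against 10 of 19 in ESC. Hnrnpm, which binds GU-rich RNA, had one of the highest ratios in both states, with means of 1.15 in EB and 0.93 in ESC. Hnrnpul2 and Hnrnpk had means of 0.16 and 0.17 in EB, where neither was called, against -0.56 and -0.39 in ESC, where both were called below 0. With single cultures left out the ESC call was kept in 6 of 6 fits for Hnrnpul2 and in 1 of 6 for Hnrnpk. The 4 probe sets of Hnrnpk ran from -0.39 to 0.065 in ESC.

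**Figure D2:**
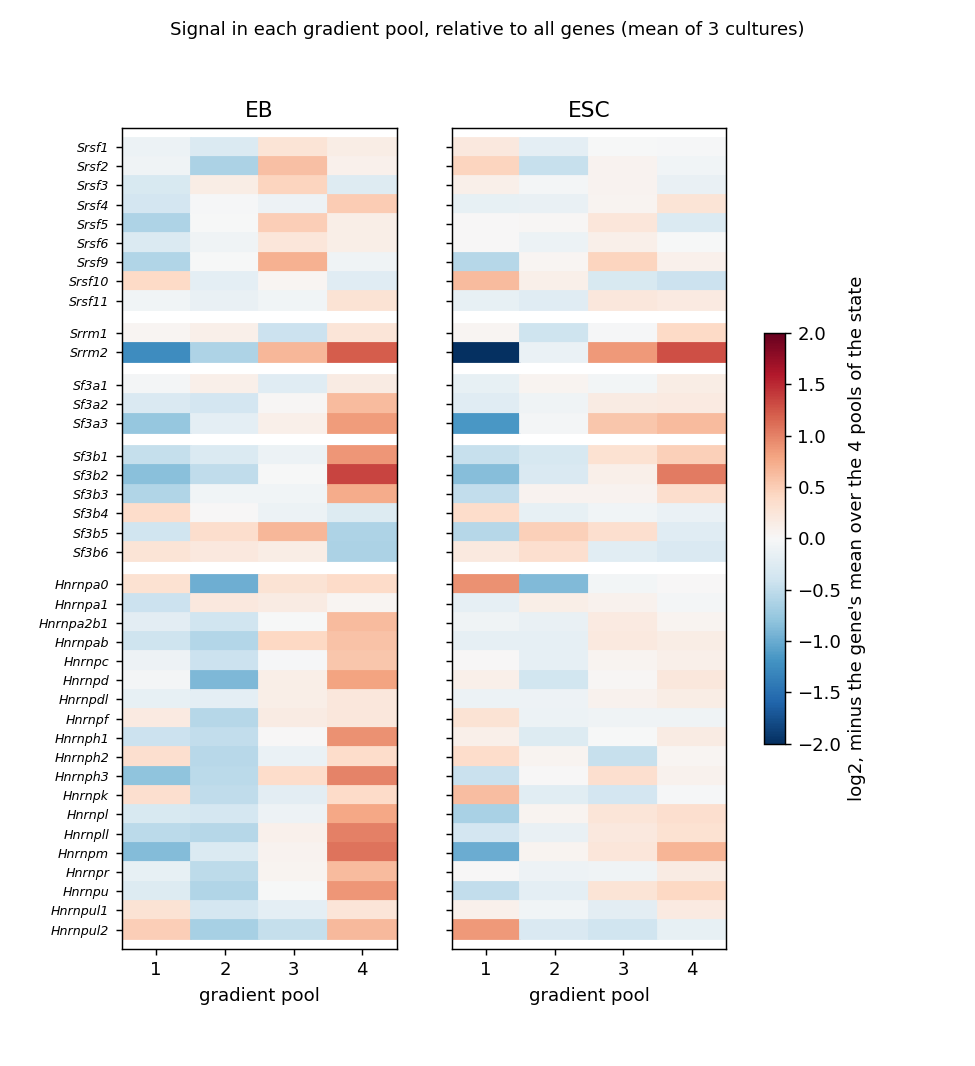
Mean signal of each member in gradient pools 1 to 4 of EB (left) and ESC (right), as the log2 deviation from the gene's own mean over the 4 pools of that state (red above, blue below), relative to all genes, 3 cultures a group. Most hnRNPs peak in pool 4 in EB (17 of 19), most SR proteins in pool 3 (6 of 9), and Srrm2 has the steepest gradient in both states.

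The hnRNPs held 6 of the 7 members whose pool ratio was called between states. The change in pool ratio was called for 7 of the 39 members, all higher in EB (17.9%), against 3.65% of all genes, and none was lower, against 4.56%. Beside the 6 hnRNPs there was Srsf5. Of the 19 hnRNPs all had a difference above 0, with a median of 0.57, where 54.9% of all genes were above 0. The median was 0.26 for SR proteins, 0.0098 for SF3B, -0.18 for SF3A and -0.41 for the 2 SR-related proteins. These depended on the scaling: with arrays centred on their medians they were 0.70, 0.50, 0.28 and 0.031, and with arrays scaled to 1 mean signal 0.50, 0.31, 0.12 and -0.19. The 3′ to 5′ signals moved with state in the pools too. In pool 4 the log2 signal of the 3′ over the 5′ probe set was 0.46 to 1.01 for Actb in EB, against 1.34 to 3.54 in ESC, and -0.15 to -0.08 for Gapdh in EB, against 0.83 to 2.0 in ESC. In pool 3 it was 0.62 to 1.67 for Actb in EB, against 1.69 to 3.59 in ESC. In pool 1 the Actb value was 1.82 to 2.98 in EB, against 3.87 to 4.22 in ESC. In pool 2 it was 1.13 to 2.22 in EB, against 3.07 to 5.31 in ESC. The 8 pluripotent markers had a median pool ratio difference of 0.45, with Nanog (1.08) and Sox2 (0.92) called higher. The part of either in the members' differences was not tested. limma called none of the 39 lower, and at an unadjusted p under 0.05, 17 were higher and 1 lower. Hnrnph3, Hnrnph1, Hnrnpul2 and Hnrnpa0 had the highest differences.

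Hnrnph3, the shortest of the G-run binding hnRNPs, had ratios of 1.33, 1.38 and 1.35 in the EB cultures, against 0.51, 0.38 and 0.42 in the ESC cultures. The difference was 0.92 ± 0.15 (adjusted p = 0.00771), and it remained called whichever of the 6 cultures was left out. Hnrnph1 had 0.81, 0.96 and 0.98 in EB, against 0.073, 0.15 and 0.26 in ESC (difference 0.76 ± 0.15, adjusted p = 0.0154). For both, the lowest EB culture was well above the highest ESC culture. Hnrnph2, the member that fell in total RNA, had 0.16, -0.18 and 0.71 in EB and -0.59, -0.39 and -0.29 in ESC, with no overlap but a wide spread in EB, and was not called (adjusted p = 0.0847).

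Hnrnpul2, a relative of the nuclear scaffold protein Hnrnpu, changed sign: its ratios were 0.28, 0.094 and 0.12 in EB, against -0.55, -0.53 and -0.60 in ESC (adjusted p = 0.0168). Hnrnpa0, which binds AU-rich elements and begins with a run of 6 pyrimidines in the sequence above, had 0.57, 0.86 and 0.61 in EB, against -0.11, 0.0074 and -0.026 in ESC (adjusted p = 0.02). Srsf5, the other member with such a start, had 0.49, 0.76 and 0.62 in EB, against 0.033, -0.22 and 0.075 in ESC (adjusted p = 0.031). None of these 3 had overlapping states. Hnrnpab had 1.09, 0.95 and 0.97 in EB, against 0.25, 0.29 and 0.50 in ESC (adjusted p = 0.0273). Hnrnpll, known in mouse T cells for exon skipping in the CD45 mRNA, had 1.00, 1.13 and 1.20 in EB, against 0.30, 0.56 and 0.70 in ESC (adjusted p = 0.049).

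Members outside the hnRNPs were more mixed. Srrm1 had the lowest difference, -0.54, with ratios of -0.05, -0.12 and -0.33 in EB and -0.12, 0.74 and 0.48 in ESC that overlapped at the first ESC culture (adjusted p = 0.144). Srsf1 had 0.48, 0.15 and 0.61 in EB and -0.046, -0.019 and -0.019 in ESC, with no overlap and no call (adjusted p = 0.123). Sf3a2 and Sf3b1 overlapped between states, with differences of 0.33 and -0.03.

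On the deposited scale all 39 members had a ratio called higher in EB, as did 64.4% of all genes (0.0755% were lower), with medians of 1.43 and 0.73. There limma gave all genes an SE of 0.237, so the spread of a single gene did not enter its p-value, and scaling on the hybridisation controls left 0 called among members and among all genes, with 19 members higher at an unadjusted p under 0.05. Relative to all genes the 7 calls fell to 1 without EB replicate 1, without ESC replicate 1 or without ESC replicate 2, and to 5 without EB replicate 3, the culture whose pool 2 array stood apart. With an offset of 4 in place of 32 limma called 0 of all 13250 genes, members included (14 members higher at an unadjusted p under 0.05), while the 19 hnRNP differences stayed above 0. Centring on medians gave 26 members higher and none lower, against 17.6% and 15.8% of all genes, and scaling to 1 mean signal gave 14 and none, against 12.4% and 2.73%.

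**Figure D3:**
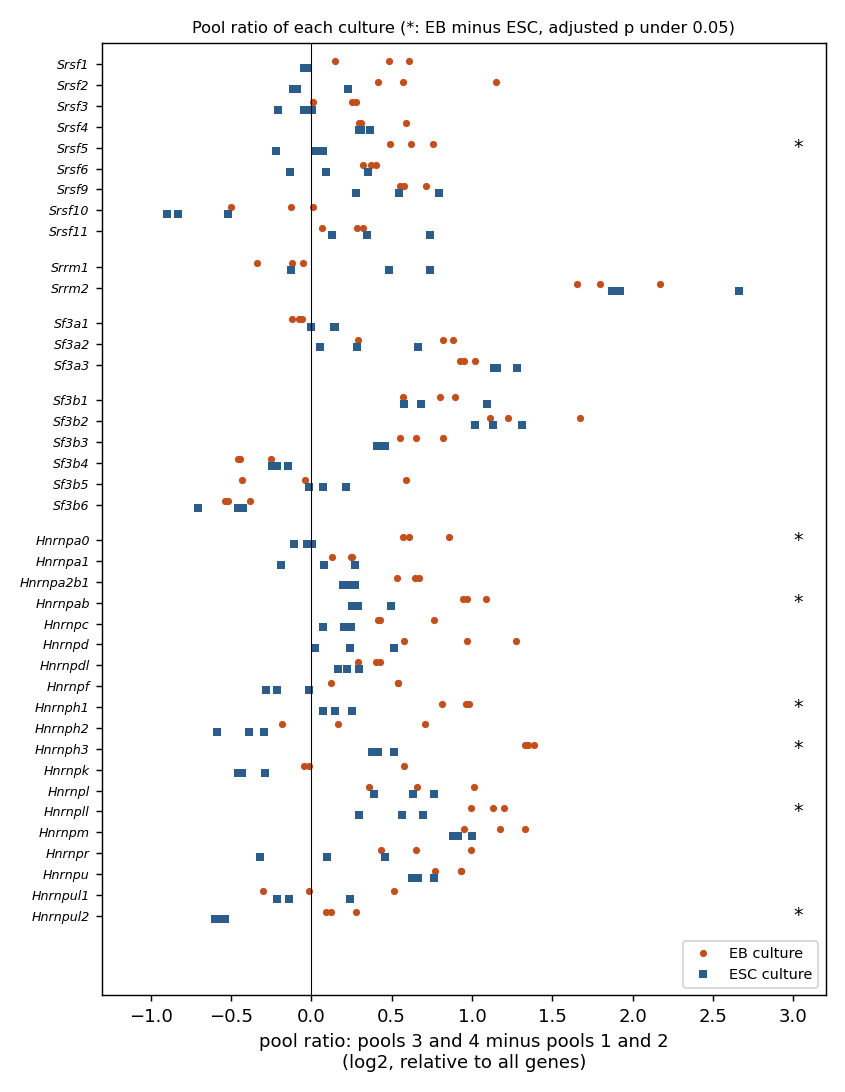
Pool ratio (average log2 value of pools 3 and 4 less the average of pools 1 and 2, relative to all genes) of each of the 3 EB cultures (orange circles, upper) and 3 ESC cultures (blue squares, lower) for the 39 members. Asterisks mark the 7 members called between states. Hnrnph3 lies between 1.33 and 1.38 in EB, against 0.38 to 0.51 in ESC, and Srrm2 lies furthest right in both states.

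In pool 1, 5 members fell and none rose in EB, against 5.44% and 4.45% of all genes, and in pool 2, 8 fell and none rose, against 5.38% and 3.9%. At an unadjusted p under 0.05 limma had 18 lower and 0 higher in pool 1, and 15 lower and 1 higher in pool 2. In pool 3, 4 rose and 10 fell, against 10.7% and 12.2%. In pool 4, 9 rose and 2 fell, against 14.5% and 15.1%. The hnRNP median was -0.42 in pool 1, -0.59 in pool 2, -0.021 in pool 3 (0.10 when arrays were centred on their medians, which moved the median of all genes to -0.11, against 0.0049 as reported) and 0.21 in pool 4.

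Hnrnpu, a chromatin-bound RNA-binding protein also called scaffold attachment factor A, fell in all 4 pools on the probe set used, 1 of its 5. In pool 2 it had 10.93, 10.96 and 10.59 in the EB cultures, against 12.11, 12.22 and 11.89 in the ESC cultures (difference -1.24 ± 0.18, adjusted p = 0.00474). In pool 3 it had 11.51, 11.43 and 11.36, against 12.53, 12.54 and 12.53 in ESC (adjusted p = 0.000138). The differences in pools 1 and 4 were -0.61 (adjusted p = 0.0268) and -0.37 (adjusted p = 0.0326). In total RNA it differed by -0.35 and was not called (adjusted p = 0.0663). The difference in its pool ratio was 0.19. Its 5 probe sets ran from -1.24 to 0.095 in pool 2, from -1.10 to 0.20 in pool 3 and from -0.43 to 0.55 in pool 4, and 1423050_s_at was also called lower in pools 2 and 3.

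Hnrnpd, the AU-rich element binder also called AUF1, fell in pools 1, 2 and 3. In pool 2 it had 9.45, 9.92 and 9.48 in EB, against 10.93, 10.73 and 10.70 in ESC (difference -1.17 ± 0.19, adjusted p = 0.00639), and in pool 4 the difference was -0.082. Hnrnpul2 fell in pools 1, 2 and 3 (differences -0.80, -0.79 and -0.51) and rose in pool 4 (0.38, adjusted p = 0.0299). Srrm2 fell in pool 2, with 8.55, 8.31 and 8.13 in EB, against 9.33, 9.13 and 9.32 in ESC (adjusted p = 0.0131). Hnrnpab, Hnrnpc, Hnrnpf and Hnrnpl also fell in pool 2, by 0.64 to 0.72 on the log2 scale, and Srsf3 and Sf3b1 in pool 1, by 0.56 and 0.58.

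In pool 3 the called SR proteins were higher in EB and the called U2 snRNP subunits lower. Srsf10, Srsf9 and Srsf2, the last a speckle marker, rose there. Srsf9 had 11.17, 10.97 and 10.90 in EB, against 10.56, 10.47 and 10.67 in ESC (adjusted p = 0.0254), and Srsf10 and Srsf2 differed by 0.46 (adjusted p = 0.0463) and 0.40 (adjusted p = 0.0436). Hnrnpa0 rose by 0.43. Sf3b1, Sf3a3 and Sf3a1 fell in pool 3. Sf3b1 had 10.16, 10.03 and 9.81 in EB, against 10.98, 11.00 and 10.97 in ESC (difference -0.99 ± 0.12, adjusted p = 0.00049). Sf3a3 and Sf3a1, both of SF3A, differed by -0.74 (adjusted p = 0.00714) and -0.73 (adjusted p = 0.00475). Among the hnRNPs, Hnrnpu, Hnrnpl, Hnrnpd, Hnrnpul2, Hnrnpa2b1, Hnrnpc and Hnrnpll fell in pool 3, by 0.43 to 1.10.

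In pool 4 the risers were led by Hnrnph3, with 9.78, 9.94 and 9.74 in EB, against 8.67, 8.66 and 8.77 in ESC, a 2.18-fold difference (adjusted p = 0.000373). Hnrnph1 followed, with 11.94, 11.96 and 11.81 in EB, against 10.99, 11.14 and 11.05 in ESC (1.79-fold, adjusted p = 0.000966). Srsf5 rose by 0.55 (adjusted p = 0.012) and Hnrnpa0 by 0.46 (adjusted p = 0.0397). Hnrnpll, Hnrnpul2, Hnrnpk, Hnrnpm and Sf3b3 rose by 0.30 to 0.39. Sf3a1, the largest SF3A subunit, fell in pool 4 as in pool 3, with 8.83, 8.64 and 8.79 in EB, against 9.36, 9.19 and 9.26 in ESC (adjusted p = 0.00773), though the mean of its probe sets gave 0.011.

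The pool 1 calls were all lost when any 1 culture was left out, with an offset of 4 and with replicate number as a block. In pool 2 leaving out a culture left 2 to 6 lower, 6 of them without EB replicate 3, and Hnrnpu and Hnrnpd were kept in every such fit. In pool 3 the rises of Srsf10 and Srsf2 were kept in 1 of 6 such fits and those of Srsf9 and Hnrnpa0 in 2 of 6, and all 4 were lost with an offset of 4, while Sf3b1, Sf3a3, Sf3a1 and Hnrnpu were kept in 6 of 6. Centring on medians gave 5 higher and 3 lower in pool 3, against 13% and 20.8% of all genes. In pool 4 it gave 24 higher and 0 lower, against 24.2% and 35.1% of all genes, whose median there moved to -0.11, against 0.032 as reported.

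Several of these differences were not shared by all probe sets of a gene. Of the called members with several probe sets, 3 of 5 in pool 1, 3 of 7 in pool 2, 7 of 11 in pool 3 and 3 of 7 in pool 4 had another probe set with a difference of the opposite sign. In pool 3 the probe sets of Sf3b1 ran from -0.99 to 0.13, those of Sf3a3 from -0.74 to 0.30 and those of Sf3a1 from -0.73 to 0.012, so the falls given for these genes are those of the lowest probe set. The other probe set of Hnrnpd gave -0.085 in pool 2 and 0.16 in pool 3. For Srsf10 all 4 probe sets were above 0 in pool 3, from 0.46 to 1.05. In the change of pool ratio, 1 of 4 such members, Hnrnpab, had a probe set of the opposite sign.

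**Figure D4:**
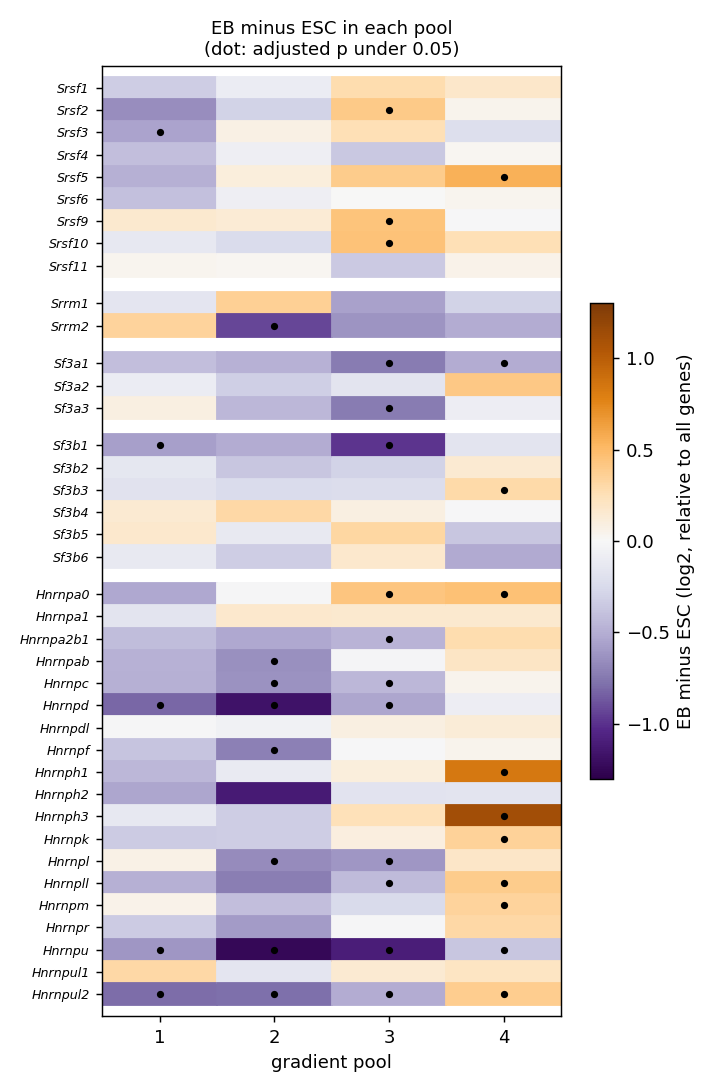
Difference between EB and ESC of each member in gradient pools 1 to 4, in log2 units relative to all genes (orange higher in EB, purple lower), over 3 cultures a state, with dots on called differences. Hnrnpu is dotted in all 4 pools, and Hnrnph3 (1.12) and Hnrnph1 (0.84) stand out in pool 4.

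For 5 genes, probe sets were called in opposite directions for their place in the gradient. These values are adjusted over 23274 probe sets. Hnrnpab had 7 probe sets: the one used, 1415914_at, had a ratio of 1.00 in EB and 0.35 in ESC, 1453849_s_at had 1.55 and 0.90, and 1426114_at had -1.51 and -1.59. Sf3b3 had 0.67 in EB and 0.43 in ESC on 1415985_at, the one used, but -1.67 and -1.06 on 1430075_at. Srrm2 had 1.87 in EB and 2.15 in ESC on 1438688_at, the one used, -1.23 and -0.62 on 1437638_at, and 0.14 and -0.047 on 1427902_at. The place of Srrm2 mRNA given above is thus that of 1 of its 3 probe sets. The part of the 3′ to 5′ signal, which differed between pools, in such disagreements was not tested.

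Hnrnpu had 5 probe sets. The one used, 1423051_at, had 0.88 in EB and 0.68 in ESC, and 1450849_at had 1.40 and 1.32, while 1434391_at had -0.41 and -0.60. Hnrnpll disagreed in ESC, where 1425255_s_at, the one used, had 0.52 and 1427144_at had -0.52, and both were above 0 in EB. Counting signs alone, 8 of 21 members called in EB and 11 of 13 called in ESC that had several probe sets had one with a ratio of the opposite sign. For the change between states, no gene had probe sets called in opposite directions. Probe sets of Sf3b1 and Srsf3 were more than 1 log2 unit apart in that change, from -0.030 to 1.04 and from -0.24 to 0.76, with none called. Srsf12, with 1 probe set, was listed at deposited log2 values of 0.31 to 4.78.

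**Figure D5:**
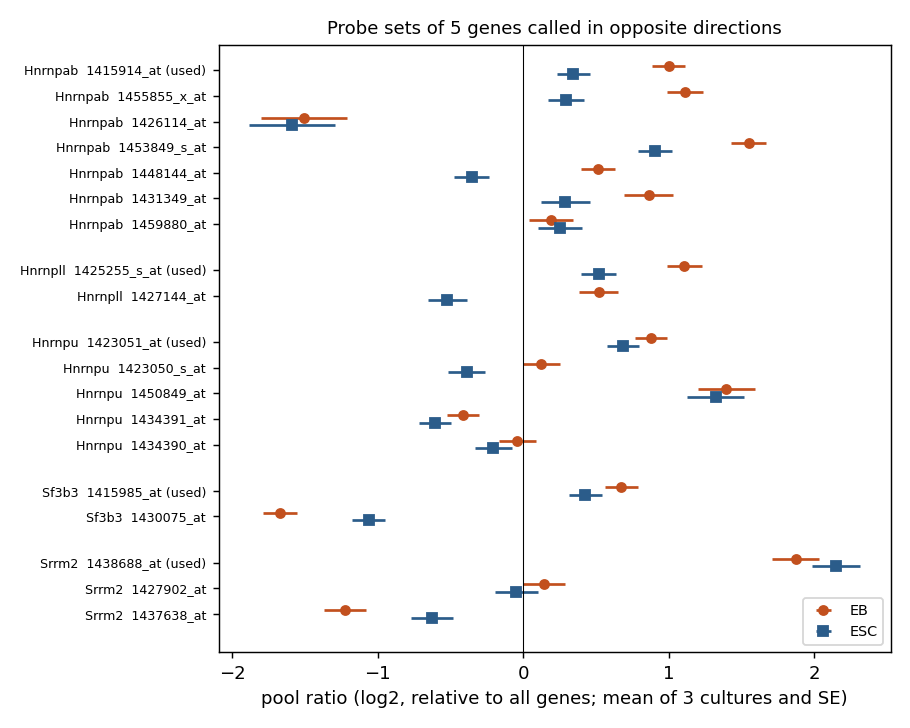
Pool ratio of every probe set past the filter for the 5 genes whose probe sets were called in opposite directions, in EB (orange circles, upper) and ESC (blue squares, lower), on a log2 scale relative to all genes. Points are means of 3 cultures and bars are SE, and the probe set used for the gene is marked. Within Hnrnpab, Hnrnpu, Sf3b3 and Srrm2 the probe sets span more than 1 log2 unit in both states, on both sides of 0.

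Other parts of the splicing machinery were counted from listed genes. Of the core snRNP proteins, 0 of 31 had a higher pool ratio in EB and 8 a lower one, against 3.65% and 4.56% of all genes, with a median of -0.18 relative to all genes. At an unadjusted p under 0.05 limma had 12 lower and 1 higher. This direction depended on the scaling. Centring on medians gave 6 higher and 2 lower with a median of 0.16, against 17.6% and 15.8% of all genes. The deposited scale gave 25 higher and 0 lower with a median of 0.89, against 64.4% and 0.0755% of all genes. Among them Lsm3 and Lsm4, of the ring on U6 snRNA, had differences of -1.04 (adjusted p = 0.0062) and -0.98 (adjusted p = 0.0124), and Snrpg, an Sm protein, had -0.999 (adjusted p = 0.0157). In total RNA 1 of the 31 rose and 4 fell, against 6.57% and 5.81% of all genes, and here too the balance turned with the scaling. Median centring gave 7 higher and 3 lower, against 18.1% and 13.9% of all genes. The deposited scale gave 29 and 0, against 78.9% and 0.325%. Snrnp48 of the minor spliceosome was at -1.05, Lsm7 at -0.94 and Snrpa1 of the U2 snRNP at -0.59.

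Of the other splicing regulators, 14 of 43 had a higher pool ratio in EB and 1 a lower one, against 3.65% and 4.56% of all genes, with a median of 0.40. Median centring gave 27 and 0, against 17.6% and 15.8% of all genes, and the deposited scale 41 and 0, against 64.4% and 0.0755%. Mbnl2, a binder of CUG repeats, had 1.19 (adjusted p = 0.00941), Qk 1.10 (adjusted p = 0.0131) and Ptbp2, the neural relative of the polypyrimidine tract binder, 1.04 (adjusted p = 0.0154). In total RNA 10 of the 43 rose and 4 fell, against 6.57% and 5.81% of all genes, with Rbm5 at 0.99, Celf2 at 0.83 and Rbmx at 0.73. Of 31 branch site, Prp19 complex and step factors, 2 had a higher and 3 a lower ratio, against the same 3.65% and 4.56%. This balance turned with the scaling, to 12 and 0 with median centring, against 17.6% and 15.8% of all genes. With mean signal it was 6 and 1, against 12.4% and 2.73%, and on the deposited scale 30 and 0, against 64.4% and 0.0755%. Prpf18, a second-step factor, was at 0.72, Xab2 at -0.85 and Phf5a, itself part of SF3B, at -0.66. In total RNA 2 of these 31 rose and 1 fell, against 6.57% and 5.81% of all genes. With median centring 12 rose and 1 fell, against 18.1% and 13.9%. As reported, Ddx39b, a helicase of splicing and export, was at 0.71, Ddx42 at 0.51 and Isy1 at -0.71.

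Of 9 SR protein kinases and importers, 3 rose and 1 fell in total RNA, against 6.57% and 5.81% of all genes. The kinases Clk4, Clk1 and Srpk1, which phosphorylate SR proteins, rose by 0.93 (adjusted p = 0.007), 0.86 (adjusted p = 0.00578) and 0.53 (adjusted p = 0.0313). Clk1 had 11.46, 11.51 and 11.42 in the EB cultures, against 10.52, 10.58 and 10.70 in the ESC cultures, with no overlap. The importer Tnpo1, which carries hnRNP A1 into the nucleus, had the one called pool ratio of the list, at 0.82 (adjusted p = 0.035). Of all genes 3.65% were called higher there. With median centring 5 of the list were higher, against 17.6% of all genes. Of 7 genes of nonsense-mediated decay and the exon junction, limma called 0 in total RNA and 0 in the pool ratio, with 0 and 2 at an unadjusted p under 0.05.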

How the data were processed

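Arrays of total RNA and of 4 gradient pools from 3 EB and 3 ESC cultures were analysed, 30 in all. The authors deposited log2 signals, and per the submitters' processing notes MAS5 and affy were used. Their settings are not given in the sources used here. From the values, each array had been scaled to its spike-in controls. The precision is limited by 3 arrays a group.

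Deposited log2 values were made linear, 32 was added and log2 was taken again. Values relative to all genes were quantile normalised over the 6 total RNA arrays or the 24 pool arrays. Probe sets in the lowest 40% by mean were left out, and a gene was read from the one with the highest mean, which gave 13250 genes. Of 45101 probe sets, 34945 had 1 symbol and 932 several, and 64 were controls. All 40 members matched the gene reference by Entrez identifier. Differences were tested in R 4.3.3 with limma 3.58.1 (lmFit and eBayes, two-sided, threshold 0.05 after Benjamini-Hochberg adjustment over all genes of a fit), and the fits were tested on simulated data. An exact permutation test of 3 cultures against 3 cannot go below 0.1 and was not used.

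The members, the other gene lists and the tests were chosen with earlier results of these data known. The text names, for each comparison relative to all genes, up to 4 called members with the highest and 4 with the lowest differences, the member with the highest mean signal of each role (Hnrnpab, Srsf1, Sf3b1, Sf3a2 and Srrm1), members whose probe sets disagreed, the member below the filter, and up to 3 called genes of each list. Other members are named after their values were seen. Cultures with the same replicate number were taken as paired where their deviations correlated across genes at over 0.1 in all 3 pairs. Only pool 2 met this rule, at 0.14, 0.10 and 0.17, and the block changed 1 call there. Single pairs reached 0.18 in pool 3 and 0.29 in pool 4, both for replicate 1. The lowest deposited value was 3.8, 2.93 and 3.35 for replicates 1, 2 and 3 in every pool of both states. The fits given are without the block. With it the 5 higher in total RNA and the 5 lower in pool 1 became 0. The 9 higher in pool 4 became 4. Alternatives were an offset of 4, no filter, the mean of a gene's probe sets, eBayes with trend and robust, other scalings, the replicate block, and each culture left out. Promoter sequences are RefSeq's, build GRCm38.p6.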

Additional observations from a re-analysis of the deposited data

Results flagged for a closer look

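The change of place in the gradient between states was called for 7 members, by limma's test of the difference between EB and ESC in pool ratio, relative to all genes. The differences were 0.92 for Hnrnph3, 0.76 for Hnrnph1, 0.73 for Hnrnpul2, 0.72 for Hnrnpa0, 0.66 for Srsf5, 0.66 for Hnrnpab and 0.59 for Hnrnpll. Hnrnpul2 had a mean ratio of 0.16 in EB, against -0.56 in ESC, and was the one called below 0 in ESC. The other 6 had mean ratios of 0.62 to 1.35 in EB, against -0.042 to 0.52 in ESC. With 3 arrays a group, no test for an outlying sample was made.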

How the results depend on the processing

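Counts of called members, relative to all genes unless stated, depended on the processing, and the cause was not tested. In total RNA the 5 higher and 1 lower became 3 and 0 with an offset of 4, 9 and 5 with trend and robust, 11 higher with median centring, 2 lower with arrays scaled to 1 mean signal, and 0 higher with the replicate block; without single cultures they were 0 to 3 higher and 0 to 1 lower. The 38 higher on the deposited scale became 6 with hybridisation-control scaling, where 15.3% of all genes were higher. In pool 1 the 5 lower became 0 (offset of 4), 8 (no filter), 16 (trend and robust), 2 (median centring), 15 (mean signal), 0 (replicate block) and 0 without any single culture. In pool 2 the 8 lower became 2 (offset of 4), 5 (mean of probe sets), 3 (median centring) and 3 (mean signal). They became 7 with the replicate block and 2 to 6 without single cultures. In pool 3 the 4 higher became 0 (offset of 4), 2 (no filter), 7 (mean of probe sets), 2 (mean signal) and 0 to 2 without single cultures, and the 10 lower became 3 with median centring and 8 to 10 without single cultures. In pool 4 the 9 higher became 3 (offset of 4), 24 (median centring), 4 (replicate block) and 3 to 7 without single cultures, and the 2 lower became 1 (offset of 4), 0 (mean of probe sets), 0 (median centring), 0 (mean signal) and 1 to 2 without single cultures. The 7 higher pool ratios became 0 (offset of 4), 26 (median centring), 14 (mean signal) and 1 to 6 without single cultures, and stayed 7 with the replicate block. On the deposited scale the 39 became 0 with hybridisation-control scaling and 38 to 39 without single cultures. Within EB the 2 lower became 0 with median centring and 0 with mean signal, and 1 to 2 without single cultures; within ESC the 14 higher and 4 lower became 9 and 7 with median centring, 2 lower with mean signal, and 9 to 14 higher and 3 to 5 lower without single cultures. The block gave no other change over 1.5 times. Mean-signal scaling moved the median ratio of all genes in EB to 0.26, against 0.058 as reported, and their median difference in total RNA to 0.12, against 0.011. Single members reversed 4 times: Sf3a1 in pool 4 with the mean of probe sets (0.011), Sf3b4 within EB with median centring (0.062) and mean signal (0.19), and Sf3b6 within EB with mean signal (0.023). Of 571 refits of named members, 410 stayed called in the same direction and 157 lost the call.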

Other observations

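Array probe sets that name several genes were not used for the members, and 7 of them hold an hnRNP symbol. Hnrnpa3, which binds the same kinds of RNA as Hnrnpa1, appears on the array in 4 probe sets only beside Gm6793. These 4 had mean pool ratios of 0.33 to 0.72 in EB, against -0.23 to 0.40 in ESC, and each had a higher ratio in EB. Their total RNA differences ran from -0.16 to 0.76. The 3 probe sets that name Hnrnpa1 beside gene models and a pseudogene had total RNA differences of 0.26 to 0.60, while the probe set used for Hnrnpa1 had 0.31 (adjusted p = 0.0961). It was the highest of the 3 that name Hnrnpa1 alone, which ran from -0.40 to 0.31. None of the 7 was tested here.

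Gradient profiles of paralogs were set side by side. Hnrnph3 and Hnrnph2 had mean ratios of 1.35 and 0.23 in EB, and 0.44 and -0.42 in ESC. Hnrnpl and Hnrnpll had 0.68 and 1.11 in EB, and 0.60 and 0.52 in ESC. Hnrnpa0 had its lowest signal in pool 2 in both states, with means in pools 1 to 4 of 10.54, 9.26, 10.52 and 10.63 in EB and 11.07, 9.27, 10.09 and 10.16 in ESC. These are descriptions without a test between genes.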
